A study of Rattus norvegicus with 8 samples.

Results

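The 10 genes described here are Prss23, Cyba, Tspo, Klhl8, Enpp1, Adarb1, Bmx, Soat1, Golim4 and Gng8, taken from 30240 rows of the deposited gene table by symbol. They were chosen by their measured values: they differed most between libraries labelled TGF and N, or with both the TGF and the genotype label, and they are not textbook targets of TGF-beta signalling. None of them is on the list of 28 classical TGF-beta targets used below. All 10 passed the filter on low values (1 CPM or more in at least 4 libraries), as did 6849 genes in all. Because the TGF and genotype contrasts chose the genes, their values, adjusted p-values and calls in those contrasts are given as a description only. For these genes, results are read as tests in the plasmid contrast and the interactions, which the choice did not use directly. The interactions are part of the residual spread behind the TGF and genotype calls. A choice by such calls would therefore favour genes with small interactions.

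RNA was profiled by 3′-end sequencing in SF2 cells, a rat dental epithelial line from the cervical loop of the mandibular incisor, the tissue that supplies the enamel-forming ameloblasts. Cells were labelled AmeloD-overexpressing or Control (AmeloD, encoded by Ascl5, is a basic helix-loop-helix factor that regulates transcription in dental epithelium), carried the plasmid label pCMV6 or pCMV6.ODAM (ODAM is a protein secreted by ameloblasts), and had the treatment label N or TGF. The 8 combinations of these labels had 1 library each, which gives 4 libraries to each label and none in replicate. The labels do not spell out N or TGF, and give no dose, time, method of overexpression or number of clones.

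Transforming growth factor beta ligands bind a pair of receptor kinases that phosphorylate SMAD2 and SMAD3, which join SMAD4 and act on gene promoters and enhancers. In teeth, the pathway is known for exchanges between epithelium and mesenchyme and for its part in ameloblast differentiation and enamel formation. Its best known targets encode extracellular matrix proteins, matrix cross-linking enzymes and feedback inhibitors, whereas the 10 genes described here encode a secreted protease, an oxidase subunit, a ubiquitin-ligase adaptor, a tyrosine kinase, enzymes of nucleotide, RNA and sterol metabolism, and proteins of the mitochondrion, the Golgi apparatus and G protein signalling.

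The libraries held 10568146 to 17775226 reads in total, of which 15.6% to 17.5% lay in the gene table, with the highest shares in the pCMV6.ODAM TGF libraries (17.2% in AmeloD and 17.5% in Control). CPM, the deposited read counts scaled to the library total, are the unit below. A total of 3 reads, the limit that a count of 0 allows, corresponds to 0.169 to 0.284 CPM. With pCMV6.ODAM, Odam reads summed to 31 (1 and 3 in AmeloD, 10 and 17 in Control, N before TGF) and with pCMV6 to 1 (Control N). Ascl5 had 0 reads in every library, which does not check the AmeloD label, since a transgene may lack the native 3′ end that these libraries read. The epithelial markers Krt5 and Krt17 had means of 237 and 424 CPM. For TGF 0 of the 5 tested epithelial markers were called, beside 1.81% of all tested genes. For genotype Krt17 (0.65 ± 0.08), Krt5 (0.37 ± 0.09), Epcam (0.65 ± 0.13) and Cdh1 (0.74 ± 0.19) rose in AmeloD and Krt8 fell (-1.06 ± 0.16; limma, adjusted p from 4.86e-06 to 0.00791). Their summed level was 735 to 843 CPM in AmeloD and 508 to 648 CPM in Control, and the AmeloD libraries were also the shallower (10568146 to 13668736 reads, against 14766931 to 17775226); the part of either in the genotype differences below was not tested. Krt18 on the epithelial list had 0 reads, so a count of 0 does not show that a cell type is absent. Markers of other types with 0 reads included Csf1r and Lyz2 (leukocytes), Kdr and Tek (endothelium), Col1a2 and Pdgfrb (mesenchyme) and Dspp and Dmp1 (odontoblasts). Other genes on these lists were detected at low levels over the 8 libraries, with 233 reads for Cd68 (leukocytes), 144 for Egfl7 (endothelium), 57 for Twist1 (mesenchyme) and 178 for Spp1 (odontoblasts and bone). Of these Cd68 rose in AmeloD (0.95 ± 0.18, limma, adjusted p = 0.000792).

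Prss23, Cyba and Tspo were higher with the TGF label and higher in AmeloD. Enpp1, Adarb1, Bmx and Soat1 were higher with TGF and lower in AmeloD. Klhl8 was higher and Golim4 and Gng8 were lower with TGF, and these 3 were not called for genotype (limma, adjusted p = 0.0829 for Klhl8 and 0.133 for Golim4). Across the genes and the 4 matched pairs of libraries that differ in the TGF label alone, 40 of 40 ratios lay on the side of the gene's mean. The genes were chosen for their TGF difference in these same libraries, so this count is a description and no support. The deposited values cannot tell a change in RNA per cell from a change in the number of cells of a type.

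**Figure D1:**
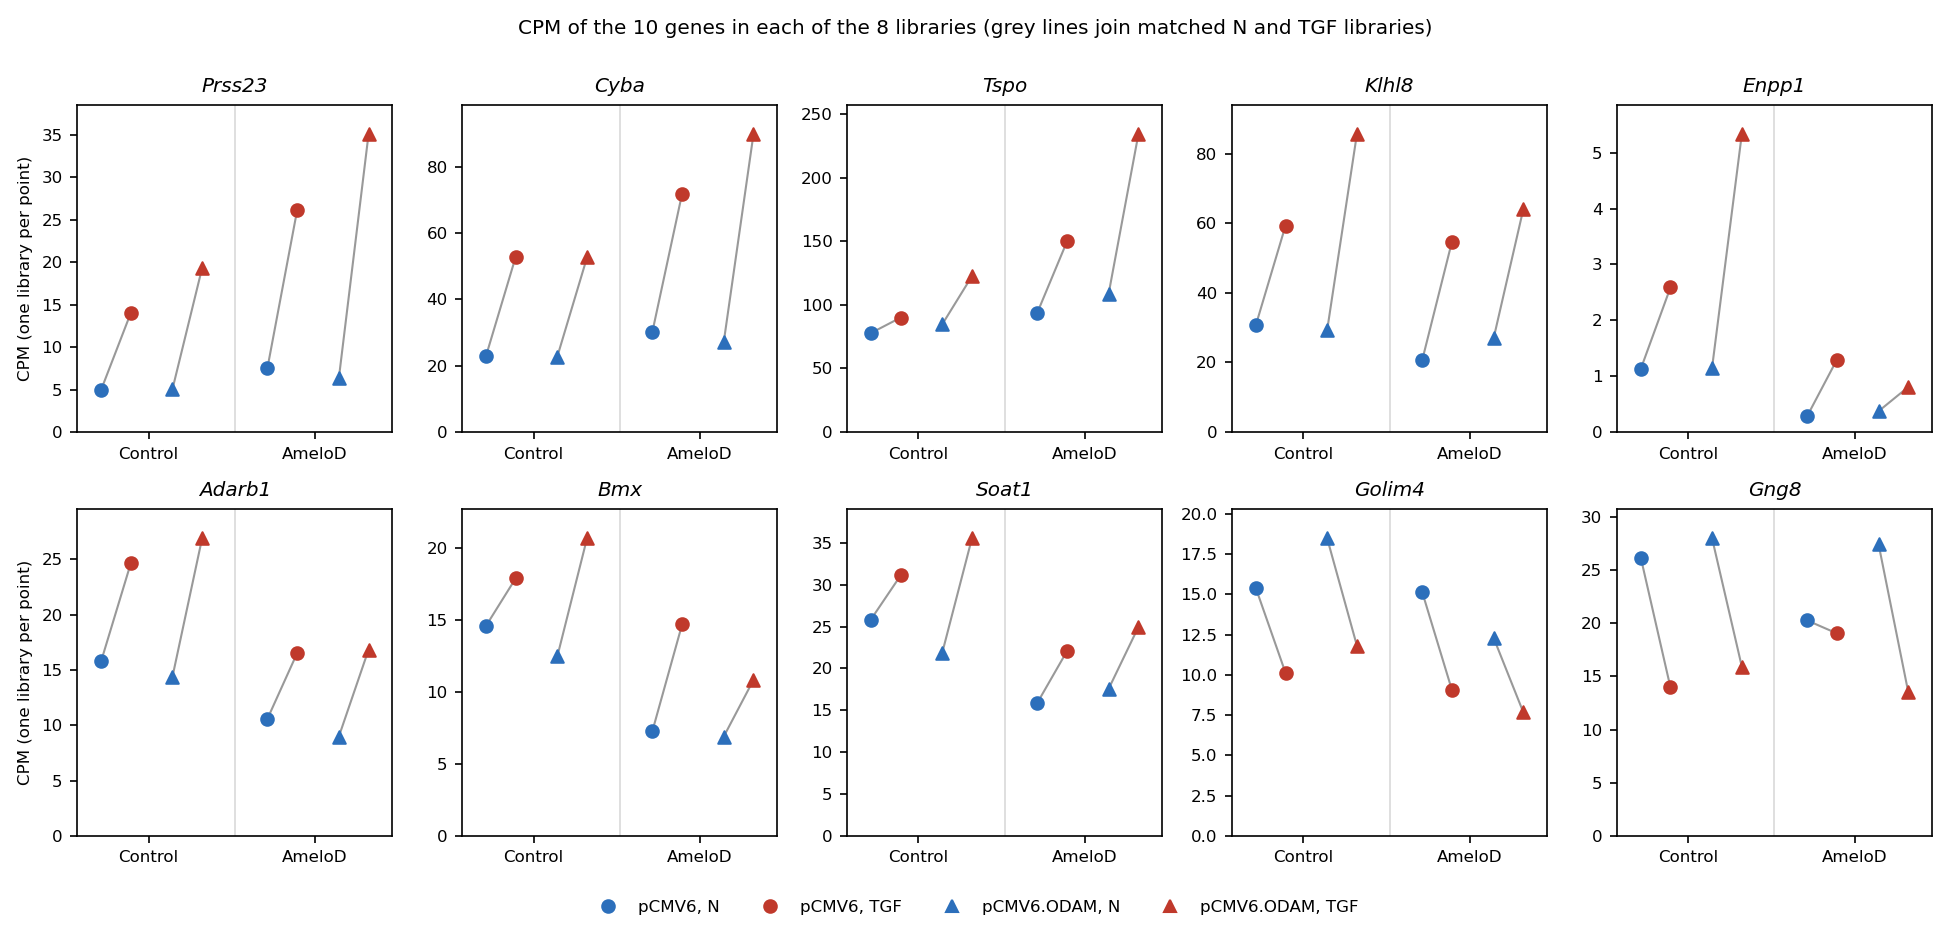
CPM of each gene (vertical axes, linear from 0) in each of the 8 libraries, grouped by genotype; circles are pCMV6, triangles pCMV6.ODAM, blue N and red TGF, and grey lines join libraries that differ in the TGF label alone. Red lies above blue in every pair of the first 8 panels and below it in every pair for Golim4 and Gng8, and Prss23 reached its highest value, 35.0 CPM, in the AmeloD pCMV6.ODAM TGF library.

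Reference promoters (RefSeq, GRCr8, the 250 bases before the annotated start) were given for Cyba, Klhl8, Adarb1, Bmx, Soat1 and Golim4. Prss23, Enpp1, Tspo and Gng8 had no entry. Promoters of 4 genes are shown because Cyba and Klhl8 had the largest TGF differences among those with an entry, and Adarb1 and Golim4, of which Adarb1 was higher and Golim4 lower with TGF, were those with a motif match. They are written 5′ to 3′ on the gene's strand, in lower case, with capitals only for a match to a searched motif. The positions are chr19:67404215-67404464 (minus strand) for Cyba, chr14:6112239-6112488 (plus strand) for Klhl8, chr20:11221921-11222170 (plus strand) for Adarb1 and chr2:163031902-163032151 (minus strand) for Golim4.
Cyba: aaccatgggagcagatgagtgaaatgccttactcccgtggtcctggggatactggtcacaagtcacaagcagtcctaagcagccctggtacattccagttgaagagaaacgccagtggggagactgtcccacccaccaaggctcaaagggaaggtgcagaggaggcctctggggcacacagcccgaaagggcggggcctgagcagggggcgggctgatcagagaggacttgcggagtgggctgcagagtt
Klhl8: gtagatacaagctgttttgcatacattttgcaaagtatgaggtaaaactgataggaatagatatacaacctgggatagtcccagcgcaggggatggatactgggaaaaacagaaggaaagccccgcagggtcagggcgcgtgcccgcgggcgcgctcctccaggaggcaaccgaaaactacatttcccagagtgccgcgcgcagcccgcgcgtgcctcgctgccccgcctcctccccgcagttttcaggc
Adarb1: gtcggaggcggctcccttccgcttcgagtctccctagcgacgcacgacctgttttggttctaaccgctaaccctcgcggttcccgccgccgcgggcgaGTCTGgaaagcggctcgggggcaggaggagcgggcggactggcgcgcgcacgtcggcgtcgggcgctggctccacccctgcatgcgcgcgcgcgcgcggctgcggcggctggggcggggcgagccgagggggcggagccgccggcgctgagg
Golim4: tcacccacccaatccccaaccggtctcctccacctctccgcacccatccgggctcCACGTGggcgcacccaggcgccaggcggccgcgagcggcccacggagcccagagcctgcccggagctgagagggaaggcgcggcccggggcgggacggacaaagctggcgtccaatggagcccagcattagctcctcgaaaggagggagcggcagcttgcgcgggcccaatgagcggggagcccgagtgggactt
The motifs were searched on both strands. The SMAD element CAGAC was found in 1 of the 6 promoters, that of Adarb1, where it reads GTCTG on the gene's strand, 152 to 148 bases before the start; 42.9% of 33469 promoters of this length held it. The E-box CACGTG, a site class of basic helix-loop-helix factors, was found in that of Golim4, 195 to 190 bases before the start, against 5.59% of all promoters. The SMAD palindrome GTCTAGAC (0.173% of all promoters), the AP-1 motif TGANTCA (6.34%) and the E-box CAGCTG (12.0%) had 0 matches in the 6. The GC content of the 6 promoters ran from 44.8% (Bmx) to 76.4% (Adarb1), beside a median of 51.2% over all promoters. These are letter matches in a short window and say nothing of binding.

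Prss23 encodes a secreted serine protease and lies on chromosome 1 at 143401396 to 143422091 (mRatBN7.2, minus strand, ENSRNOG00000017307). In Control libraries with N it was at 4.94 CPM (pCMV6) and 5.01 CPM (pCMV6.ODAM), and with TGF at 14.0 and 19.3 CPM. In AmeloD libraries with N it was at 7.57 and 6.30 CPM, and with TGF at 26.1 and 35.0 CPM. The TGF and N libraries did not overlap, and in each pair that differs in genotype alone the AmeloD library was the higher. The mean was 23.6 ± 9.09 CPM with TGF and 5.96 ± 1.24 CPM with N (SD, n = 4 each), a 3.97-fold difference, with pairs from 2.83-fold to 5.56-fold. By log2 difference it stood at rank 4 of the 105 genes higher with TGF, at 1.76 ± 0.15 (SE, log2(CPM + 1)), after Igfbp5 at 1.95 and before Loxl2 at 1.69. The genotype difference was 0.62 ± 0.15, from means of 18.8 ± 14.1 CPM in AmeloD and 10.8 ± 7.08 CPM in Control. The ratio of TGF to N was 4.41 in AmeloD and 3.35 in Control.

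Cyba encodes p22phox, the membrane subunit that stabilises the catalytic chain of several NADPH oxidases, and lies on chromosome 19 at 50487597 to 50495721 (minus strand, ENSRNOG00000013014). With N it was at 22.9 and 22.8 CPM in Control and at 30.3 and 27.1 CPM in AmeloD (pCMV6, then pCMV6.ODAM). With TGF it was at 52.9 and 52.7 CPM in Control and at 72.0 and 89.8 CPM in AmeloD. The TGF and N groups did not overlap. Within each TGF label the Control libraries with pCMV6 and pCMV6.ODAM lay within 1 CPM of each other. The means were 66.8 ± 17.8 CPM with TGF and 25.8 ± 3.63 CPM with N, a 2.59-fold difference, and the log2 difference was 1.32 ± 0.11. The genotype difference was 0.46 ± 0.11 on that scale, from 54.8 ± 31.0 CPM in AmeloD and 37.8 ± 17.3 CPM in Control.

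Few reads were counted on most NADPH oxidase genes listed with Cyba. Of the other NADPH oxidase genes on a list of 15 with Cyba, Cybb, Nox3, Noxa1 and Rac2 had 0 reads, Nox4 had 1, Nox1 had 41 and Duox1 had 50 reads over the 8 libraries. Broadly expressed genes were also low in this table (Krt18 and Golga3 at 0 reads, Rbx1 at 3), so a count of 0 does not show that a gene is not expressed. Rac1, a small GTPase of the oxidase complex, and Cybc1, a chaperone of the complex, were the 2 others tested, and neither passed the TGF test (0.09 ± 0.16, adjusted p = 0.897, and 0.26 ± 0.19, adjusted p = 0.649, limma). Because Cyba is also abundant in phagocytes, the leukocyte list was read beside it. Its summed level was 2.77 to 3.78 CPM in AmeloD and 0.876 to 1.63 CPM in Control, and 1.62 to 3.73 CPM with TGF against 0.876 to 3.78 CPM with N, with 3 of 8 markers at 0 reads and Ptprc at 1 read. Cd68, a lysosomal marker of macrophages, made up most of it and was higher in AmeloD, as Cyba was (3.21 ± 0.441 against 1.20 ± 0.370 CPM). The part of such cells in the Cyba values was not tested.

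Tspo encodes the translocator protein of the outer mitochondrial membrane, a binding partner of cholesterol, and lies on chromosome 7 at 114720188 to 114730450 (plus strand, ENSRNOG00000010549). Tspo levels with N were 77.8 and 84.6 CPM in Control and 93.9 and 109 CPM in AmeloD (pCMV6, then pCMV6.ODAM). Tspo levels with TGF were 90.0 and 123 CPM in Control and 150 and 234 CPM in AmeloD. The TGF and N groups overlapped, because the Control pCMV6 TGF library lay below both AmeloD N libraries. The means were 149 ± 61.7 CPM with TGF and 91.3 ± 13.4 CPM with N, a 1.63-fold difference, with a log2 difference of 0.63 ± 0.11. The genotype difference was 0.57 ± 0.11, from 147 ± 62.9 CPM in AmeloD and 93.7 ± 19.8 CPM in Control. Its ligand gene Dbi, which encodes the diazepam binding inhibitor, was at a mean of 202 CPM with a TGF difference of -0.02 ± 0.08 (adjusted p = 0.974) and fell in AmeloD (-0.29 ± 0.08, limma, adjusted p = 0.0207). The channel genes Vdac1, Vdac2 and Vdac3 passed neither test.

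Klhl8 encodes a Kelch-domain adaptor of CUL3 ubiquitin ligases and lies on chromosome 14 at 5807907 to 5853294 (plus strand, ENSRNOG00000002214). In the N libraries it was at 30.7 and 29.3 CPM in Control and at 20.7 and 26.9 CPM in AmeloD (pCMV6, then pCMV6.ODAM). In the TGF libraries it was at 59.4 and 85.6 CPM in Control and at 54.8 and 64.1 CPM in AmeloD. The groups did not overlap, and in the 4 pairs that differ in genotype alone the AmeloD library was the lower. The TGF difference was 2.45-fold (66.0 ± 13.6 against 26.9 ± 4.42 CPM, log2 difference 1.26 ± 0.11), and the ratio was 2.50 in AmeloD and 2.42 in Control. Of the other 8 tested genes of the CUL3 and Kelch list, 0 passed the TGF test, beside 1.81% of all tested genes. A count of 0 in so short a list does not set Klhl8 apart from it. Among these 8 were Klhl5 (0.31 ± 0.17, limma, adjusted p = 0.484) and Cul3 (-0.13 ± 0.19, adjusted p = 0.865). Klhl7 and Klhl24 rose in AmeloD (0.72 ± 0.16, adjusted p = 0.00288, and 0.75 ± 0.21, adjusted p = 0.0157, limma), whereas Klhl8 was at -0.30 ± 0.11.

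Enpp1 encodes the ectoenzyme that makes pyrophosphate, an inhibitor of mineral formation, from extracellular nucleotides. It lies on chromosome 1 at 20698764 to 20763715 (plus strand, ENSRNOG00000013994) and was the lowest of the 10 in reads, with 196 over the 8 libraries. With N it had 18 and 17 reads in Control and 3 and 5 reads in AmeloD (pCMV6, then pCMV6.ODAM). With TGF it had 46 and 82 reads in Control and 14 and 11 reads in AmeloD. In CPM these are 1.13, 1.15, 0.284 and 0.371 with N and 2.59, 5.33, 1.29 and 0.805 with TGF, so that the groups overlapped: the AmeloD pCMV6.ODAM TGF library lay below both Control N libraries. The means were 2.50 ± 2.03 CPM with TGF and 0.733 ± 0.470 CPM with N, and 0.688 ± 0.463 CPM in AmeloD and 2.55 ± 1.98 CPM in Control.

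The TGF to N ratio of Enpp1 was 4.56 in the AmeloD pCMV6 pair, with an exact 95% counting interval of 1.27 to 24.7, and 2.17 (0.695 to 7.97) in the AmeloD pCMV6.ODAM pair. It was 2.30 (1.31 to 4.21) in the Control pCMV6 pair and 4.63 (2.72 to 8.33) in the Control pCMV6.ODAM pair. The 4 intervals overlapped, and they cover counting error only. The log2(CPM + 1) scale compresses differences between low values, and on it the TGF difference was 0.89 ± 0.20 and the genotype difference -0.96 ± 0.20. With edgeR on the recovered reads they were 1.65 and -1.91. Of 13 other genes of pyrophosphate and phosphate metabolism, only the phosphate transporter genes Slc20a1 and Slc20a2 were tested, with TGF differences of -0.04 ± 0.20 and -0.03 ± 0.18 (adjusted p = 0.976 each); Enpp2, Enpp4, Enpp5 and Enpp6 had 0 reads and Alpl had 1.

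The nearest tested gene after Enpp1 on chromosome 1 was Ccn2, at 20802199 to 20805734 on the minus strand, 38.5 kb away. Ccn2, which encodes a matricellular growth factor and is a classical TGF-beta target, was higher with TGF (27.7 ± 17.4 against 3.71 ± 3.01 CPM, log2 difference 2.62 ± 0.15) and higher in AmeloD (1.54 ± 0.15), whereas Enpp1 was lower in AmeloD. Of the 20 tested genes next to the 10 on either side, Ccn2 was the 1 called for TGF (limma, adjusted p = 1.96e-11; 1.81% of all tested genes were called). Mcat, before Tspo, was at 0.52 ± 0.15 with TGF (adjusted p = 0.0857) and rose in AmeloD by 0.54.

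Adarb1 encodes ADAR2, an adenosine deaminase that edits double-stranded RNA, and lies on chromosome 20 at 11222583 to 11350852 (plus strand, ENSRNOG00000001227). With N it was at 15.8 and 14.4 CPM in Control and at 10.6 and 8.97 CPM in AmeloD (pCMV6, then pCMV6.ODAM). With TGF it was at 24.6 and 26.9 CPM in Control and at 16.5 and 16.8 CPM in AmeloD. The TGF and N groups did not overlap, and the ratios in pairs were close: 1.56 to 1.88 for TGF over N and 0.625 to 0.672 for AmeloD over Control. The TGF to N ratio was 1.70 in AmeloD and 1.71 in Control. The log2 differences were 0.73 ± 0.13 for TGF and -0.59 ± 0.13 for genotype. Adar and Adarb2, the other adenosine deaminases acting on RNA, had 71 and 2 reads over the 8 libraries and were not tested.

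Bmx encodes a non-receptor tyrosine kinase of the TEC family and lies on chromosome X at 30227251 to 30289993 (plus strand, ENSRNOG00000003705). Bmx levels with N were 14.6 and 12.5 CPM in Control and 7.29 and 6.90 CPM in AmeloD (pCMV6, then pCMV6.ODAM). Bmx levels with TGF were 17.9 and 20.7 CPM in Control and 14.7 and 10.8 CPM in AmeloD. The TGF and N groups overlapped, with the AmeloD pCMV6.ODAM TGF library below both Control N libraries. The means were 16.0 ± 4.23 CPM with TGF and 10.3 ± 3.82 CPM with N, and 9.93 ± 3.64 CPM in AmeloD and 16.4 ± 3.62 CPM in Control. The log2 differences were 0.62 ± 0.14 for TGF and -0.71 ± 0.14 for genotype. Among other TEC kinases, Tec had 19 reads, Txk 7 and Btk 1. Of the endothelial markers Kdr and Tek had 0 reads, and the summed level of the list was 0.593 to 2.05 CPM, most of it Egfl7 (1.57 ± 0.489 CPM with TGF and 0.981 ± 0.330 CPM with N, 0.37 ± 0.19, limma, adjusted p = 0.466). The part of such cells in the Bmx values was not tested.

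Soat1 encodes the enzyme that esterifies cholesterol in the endoplasmic reticulum and lies on chromosome 13 at 68552317 to 68597494 (minus strand, ENSRNOG00000004111). In the N libraries it was at 25.8 and 21.9 CPM in Control and at 15.9 and 17.6 CPM in AmeloD (pCMV6, then pCMV6.ODAM). In the TGF libraries it was at 31.1 and 35.5 CPM in Control and at 22.1 and 24.9 CPM in AmeloD. The TGF and N groups overlapped, since the Control pCMV6 N library lay above both AmeloD TGF libraries, but the ratio of TGF to N was 1.40 in each genotype. The log2 difference of 0.47 ± 0.12 was the smallest of the 8 above 0 and stood 98th of 105, after Ctsb at 0.48 and before Sh3bgrl3 at 0.45. The genotype difference was -0.48 ± 0.12. Of 7 other tested genes of cholesterol ester storage and export, 0 passed the TGF test, beside 1.81% of all tested genes. One of them, Npc2, which encodes a lysosomal sterol carrier, fell in AmeloD (-0.78 ± 0.11, limma, adjusted p = 2.76e-05).

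Golim4 encodes a Golgi integral membrane protein that cycles to endosomes and lies on chromosome 2 at 160640938 to 160733253 (minus strand, ENSRNOG00000024213). Golim4 levels with N were 15.4 and 18.5 CPM in Control and 15.1 and 12.3 CPM in AmeloD (pCMV6, then pCMV6.ODAM). Golim4 levels with TGF were 10.1 and 11.8 CPM in Control and 9.05 and 7.68 CPM in AmeloD. The groups did not overlap, and the 4 ratios of TGF to N lay between 0.598 and 0.658. The means were 9.67 ± 1.75 CPM with TGF and 15.3 ± 2.52 CPM with N, and the log2 difference was -0.62 ± 0.14. The genotype difference was -0.32 ± 0.14, with the AmeloD library lower in 4 of 4 pairs (ratios of 0.650 to 0.983). None of the 7 other tested Golgi genes on its list passed the TGF test, beside 1.81% of all tested genes. Golgb1 and Golga1, which encode golgins, were at 0.07 ± 0.15 and -0.23 ± 0.15 (adjusted p = 0.925 and 0.616, limma).

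Gng8 encodes a gamma subunit of heterotrimeric G proteins and lies on chromosome 1 at 77564515 to 77568371 (plus strand, ENSRNOG00000016701). With N it was at 26.2 and 28.0 CPM in Control and at 20.2 and 27.4 CPM in AmeloD (pCMV6, then pCMV6.ODAM). With TGF it was at 14.0 and 15.9 CPM in Control and at 19.0 and 13.5 CPM in AmeloD. The groups did not overlap, but the ratio of TGF to N was 0.940 in the AmeloD pCMV6 pair and 0.493 to 0.569 in the other 3. The means were 15.6 ± 2.51 CPM with TGF and 25.5 ± 3.55 CPM with N, and the log2 difference was -0.67 ± 0.14, between Anln at -0.69 and Golim4 in the order of the 19 genes lower with TGF. Golim4 was followed there by Igfbp3 at -0.59. The genotype difference was -0.04 ± 0.14. Another gamma subunit gene, Gng13, rose with TGF (0.72 ± 0.16, limma, adjusted p = 0.0156) and fell in AmeloD (-1.61 ± 0.16, adjusted p = 8.85e-08), while Gng12, Gnb1 and Gng5 passed neither test.

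**Figure D2:**
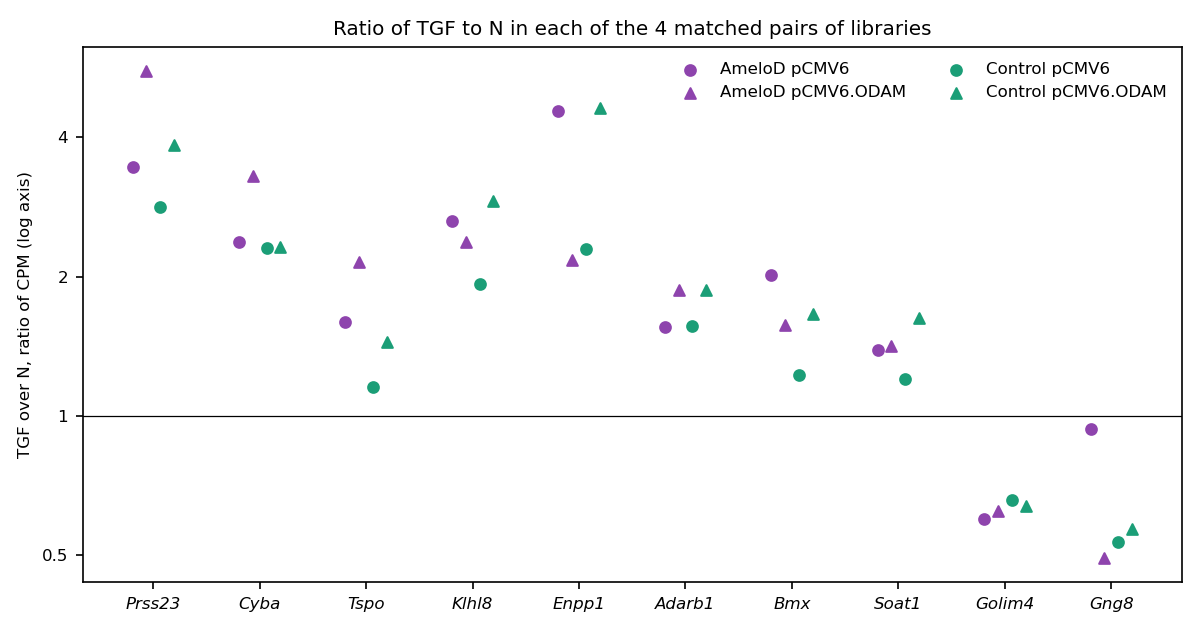
Ratio of TGF to N CPM (log axis) in each of the 4 pairs of libraries that differ in the TGF label alone, for each gene; purple is AmeloD, green Control, circles pCMV6 and triangles pCMV6.ODAM. The 4 points lie close together for Golim4 (0.598 to 0.658) and Adarb1 (1.56 to 1.88) and farther apart for Prss23 (2.83 to 5.56), Enpp1 (2.17 to 4.63) and Gng8 (0.493 to 0.940).

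The counts over the 10 restate how they were chosen. In the limma fit over all genes 124 of 6849 (1.81%) were called for TGF, 105 higher and 19 lower, and the 10 were all among them. For genotype 946 (13.8%) were called, and 7 of the 10 were among them: Prss23, Cyba and Tspo higher and Enpp1, Adarb1, Bmx and Soat1 lower in AmeloD. Of the 52 genes called in both contrasts, 7 are these. In alternative settings the TGF call of Soat1 was lost in 13 of 16, that of Bmx in 6, of Golim4 in 5 and of Gng8 in 3 of 16, and that of Enpp1 in 5 of 15, while the directions stayed. Scaling by the trimmed mean of M values (TMM) changed the split of calls from 84.7% to 74.8% higher for TGF and from 65.6% to 52.9% higher for genotype. Groups of 4 libraries did not overlap for 6 of the 10 between TGF and N (Prss23, Cyba, Klhl8, Adarb1, Golim4 and Gng8), where 4.26% of all tested genes did not. They overlapped for all 10 between the genotypes and between the plasmids, where 15.0% and 2.06% of tested genes did not overlap.

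**Figure D3:**
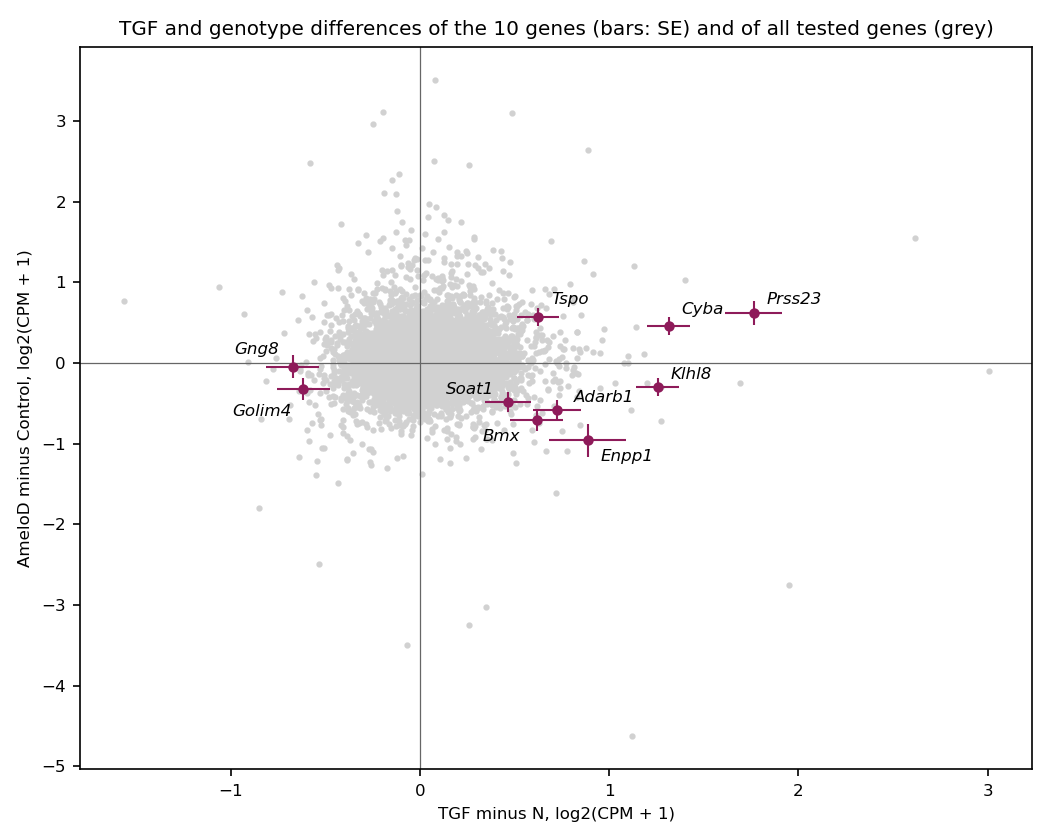
Log2(CPM + 1) difference between TGF and N libraries (horizontal) and between AmeloD and Control libraries (vertical) for the 10 genes, with SE bars, and for all 6849 tested genes in grey. Prss23, Cyba and Tspo lie at the upper right, Klhl8, Enpp1, Adarb1, Bmx and Soat1 at the lower right, and Golim4 and Gng8 at the left.

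Whether the plasmid label mattered for these genes was tested, because it had no part in their choice. Odam reads with pCMV6.ODAM were only 1 and 3 in AmeloD and 10 and 17 in Control (N, then TGF). The label, and not the level of Odam RNA, was therefore tested. None of the 10 passed (limma, adjusted p from 0.665 to 0.995), and 0 of the 6849 genes did (0%), with 454 at an unadjusted p under 0.05, 0 calls by edgeR and 1 by DESeq2. The largest difference was that of Tspo, 0.35 ± 0.11 (95% interval 0.12 to 0.58, adjusted p = 0.665), with the pCMV6.ODAM library higher in 4 of 4 pairs by 1.09-fold to 1.56-fold. It was 0.22 without the AmeloD pCMV6.ODAM TGF library. Klhl8 was at 0.26 ± 0.11 (0.03 to 0.49, adjusted p = 0.710), higher in 3 of 4 pairs. The 95% intervals of all 10 lay between -0.41 and 0.58 on the log2 scale. The median over the 10 was 0.06, beside 0.03 over all tested genes.

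Whether the TGF difference itself depended on genotype was tested with an interaction term. None of the 10 passed (limma, adjusted p of 0.999 or above), and 1 of 6849 genes did (0.0146%), with 282 at an unadjusted p under 0.05 and 0 calls by edgeR or DESeq2. Tspo again had the largest positive value, 0.52 ± 0.21 (95% interval 0.08 to 0.95, adjusted p = 0.999), from TGF to N ratios of 1.89 in AmeloD and 1.31 in Control. Without the AmeloD pCMV6.ODAM TGF library it was 0.33. Prss23 was at 0.44 ± 0.30 and Cyba at 0.28 ± 0.24. For Prss23 this ranged from 0.18 without AmeloD pCMV6.ODAM N to 0.70 without AmeloD pCMV6 N, with 0.27 without AmeloD pCMV6.ODAM TGF and 0.25 without Control pCMV6 TGF. For Cyba it ranged from 0.096 without AmeloD pCMV6.ODAM TGF to 0.47 without AmeloD pCMV6 TGF, with 0.16 without AmeloD pCMV6.ODAM N. Enpp1 had the lowest value, -0.54 ± 0.40 (-1.35 to 0.28), which ranged from -0.99 without Control pCMV6 TGF to -0.090 without Control pCMV6.ODAM TGF, with -0.87 and -0.21 without the AmeloD TGF libraries (pCMV6, then pCMV6.ODAM). For Soat1 and Adarb1 the values were -0.00 ± 0.26 and -0.02 ± 0.27, and the intervals of -0.53 to 0.53 and -0.58 to 0.54 do not show that the genotypes responded alike.

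The dependence of the TGF difference on the plasmid label gave 0 calls among the 10 and 0 among all genes (0%), with 504 at an unadjusted p under 0.05 and 0 calls by edgeR or DESeq2. On the scale of the deposited values the median of all genes in this contrast was 0.16, and with TMM scaling it was -0.00, so the values are also given relative to the median. The share of reads in the gene table, highest in the pCMV6.ODAM TGF libraries, moved with this contrast, and its part in the values was not tested. Prss23 was at 0.53 ± 0.27 (adjusted p = 0.687), or 0.37 above the median, and at 0.30 without the AmeloD pCMV6.ODAM N library. The pCMV6.ODAM to pCMV6 ratio of Prss23 was 1.34 in AmeloD and 1.38 in Control with TGF, and 0.833 and 1.01 with N. Gng8 was at -0.40 ± 0.26 (adjusted p = 0.752), or -0.56 relative to the median, and was the 1 gene of the 10 below 0 as deposited. Leaving out 1 library moved it between -0.71 (without Control pCMV6 TGF) and -0.088 (without AmeloD pCMV6 TGF), with -0.19 without AmeloD pCMV6 N and -0.61 without Control pCMV6 N. Bmx and Golim4, at 0.04 and 0.01 as deposited, were below 0 with TMM scaling. With 1 library in each combination the 4 residual degrees of freedom (3 in the interaction models) hold the remaining interactions, and limma moderates each gene's variance toward a trend over all genes. Nothing in the labels says that libraries came from separate cultures, so the p-values measure only the spread between these libraries, which may be technical.

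**Figure D4:**
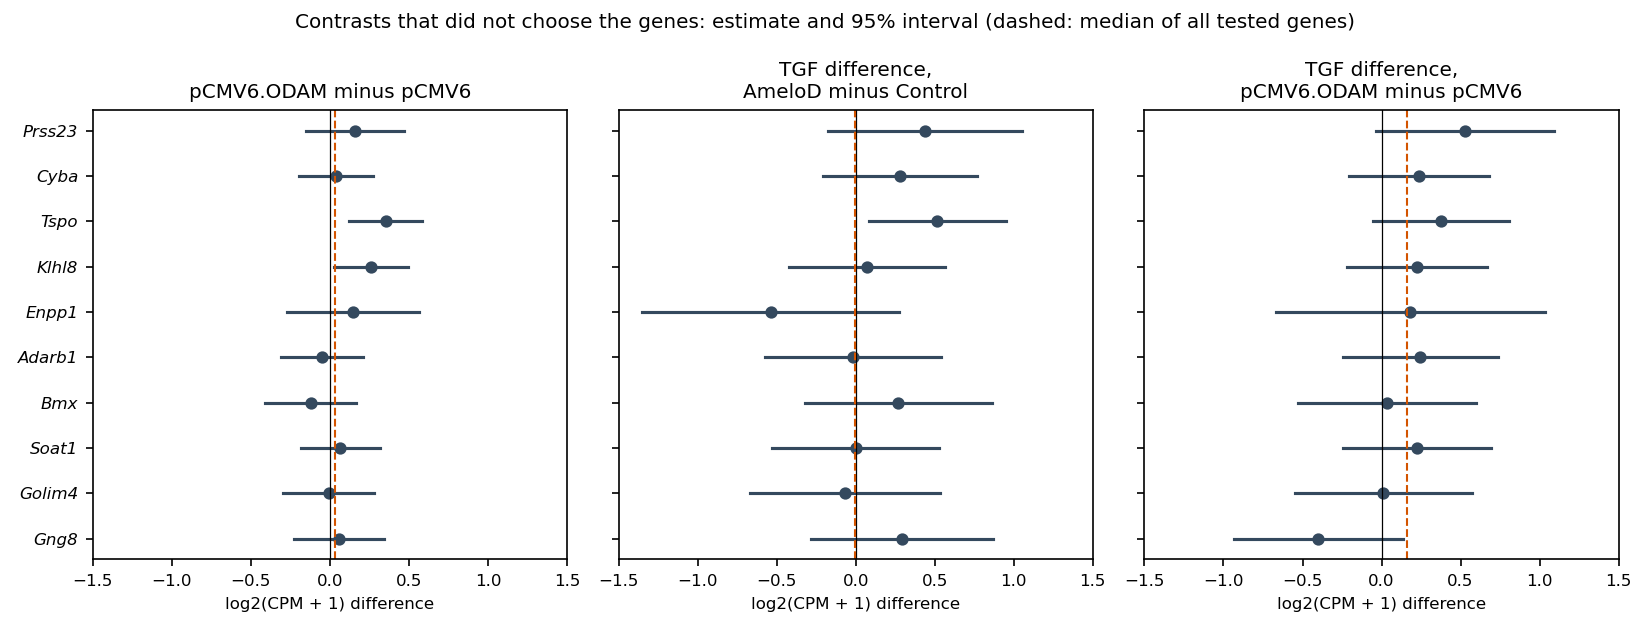
Estimates (points) and 95% intervals (lines) on the log2(CPM + 1) scale for the 10 genes in the plasmid contrast (left), the genotype by TGF interaction (middle) and the plasmid by TGF interaction (right), with the median of all tested genes dashed. The intervals of Tspo lie above 0 in the left and middle panels (0.12 to 0.58 and 0.08 to 0.95) before adjustment over all genes, and the dashed line stands at 0.16 in the right panel.

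The pathway's own genes were read beside the 10. Of 5 tested ligand, latency and activator genes, Itgb6, which encodes a subunit of an integrin that releases latent TGF-beta, rose with TGF (1.85 ± 0.450 against 0.672 ± 0.106 CPM, 0.76 ± 0.18, limma, adjusted p = 0.0234). Itgb6 was under 1 CPM in every N library and passed the filter only through the TGF libraries. Its call is therefore a description and no support. Inhba, which encodes an activin subunit, was at 0.49 ± 0.13 (limma, adjusted p = 0.0614). The receptor genes Tgfbr2 and Bmpr2 were the 2 tested, at 0.25 ± 0.14 and 0.31 ± 0.16 (adjusted p = 0.513 and 0.452). Of 9 tested SMAD and cofactor genes 1 rose, Tgif1, which encodes a SMAD corepressor (0.66 ± 0.17, adjusted p = 0.0345). None of these 3 lists had a member that fell.

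Of 13 tested classical targets 7 rose with TGF and 0 fell, with a median difference of 0.49, beside 0.04 over all tested genes. They were Pmepa1, an inhibitor of SMAD signalling (446 reads with TGF and 5 with N), Ccn2, the matrix genes Fn1 (1.12 ± 0.14), Col3a1 (0.49 ± 0.13) and Tgfbi (0.83 ± 0.21), the collagen cross-linking enzyme gene Loxl2 (1.69 ± 0.18) and the transcriptional repressor gene Bhlhe40 (1.18 ± 0.19). Their adjusted p-values ran from 1.96e-11 to 0.0401 (limma). Pmepa1 was under 1 CPM in every N library and passed the filter only through the TGF libraries, so its call is a description and no support. The combination of a rise with TGF and a lower level in AmeloD, seen for Enpp1, Adarb1, Bmx and Soat1 among the 10, was also that of Fn1 (-0.59 ± 0.14 for genotype, adjusted p = 0.00392) and Col3a1 (-1.11 ± 0.13, adjusted p = 7.91e-07). Nedd9, a scaffold protein gene of that list, rose in AmeloD (0.74 ± 0.18, limma, adjusted p = 0.00634) and was at 0.38 ± 0.18 for TGF (adjusted p = 0.409). Nedd9 was under 1 CPM in every Control library and passed the filter only through the AmeloD libraries, so its genotype call is likewise a description. These lists were drawn up with earlier results of these data known.

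**Figure D5:**
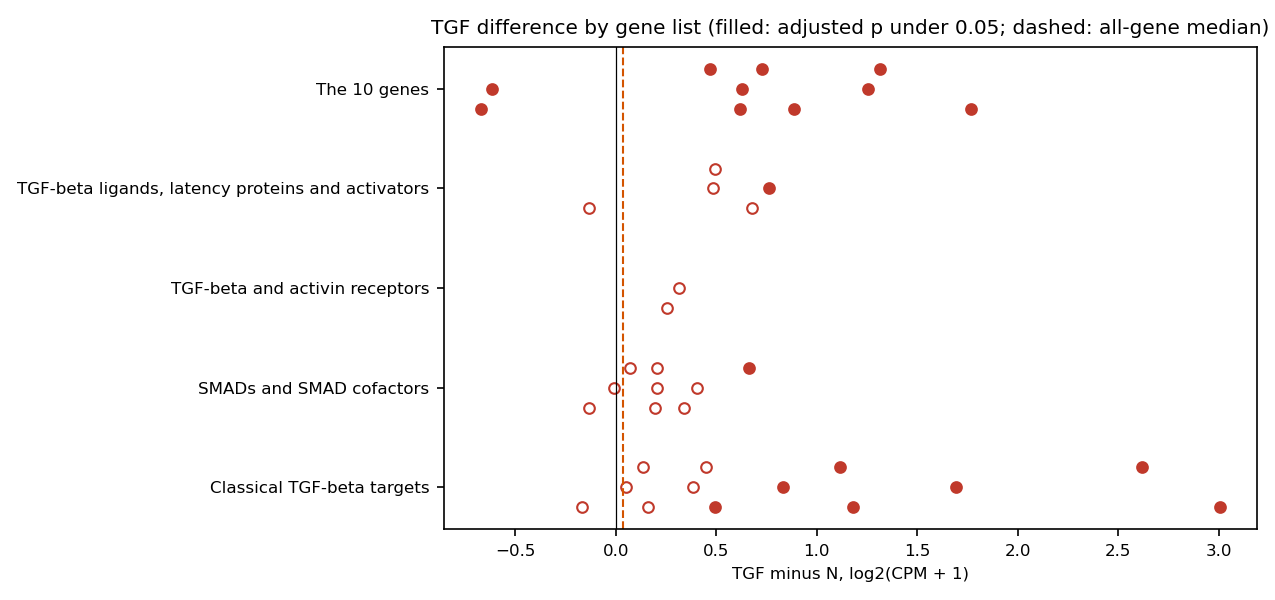
TGF minus N difference on the log2(CPM + 1) scale of the 10 genes and of the tested genes of 4 pathway lists; each circle is a gene, filled where the adjusted p was under 0.05, and the dashed line is the median of all tested genes. The filled circles of the 10 genes follow from their choice, and among the classical targets 7 of 13 are filled. Itgb6 and Pmepa1, both filled, passed the filter on low values only through the TGF libraries.

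Genes related to the 10 by family or process were counted in the same fit. Of 42 tested relatives on the 10 lists, with the 10 genes left out, 1 was called for TGF (2.38%, beside 1.81% of all tested genes), namely Gng13, and the median difference was 0.09. For genotype 8 of the 42 were called (19.0%, beside 13.8%), with Prss8, St14, Htra1, Klhl7 and Klhl24 higher and Npc2, Dbi and Gng13 lower in AmeloD. Among the higher ones are serine protease genes listed with Prss23: Htra1 (0.61 ± 0.10, adjusted p = 0.000178), which encodes a secreted protease, and Prss8 and St14 (0.74 ± 0.22 and 0.81 ± 0.21, adjusted p = 0.0223 and 0.0105), which encode membrane-anchored proteases of epithelia.

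Across the 8 libraries the log2 values of Prss23 and Cyba had a Pearson correlation of 0.993, those of Adarb1 and Soat1 of 0.956, and those of Bmx and Adarb1 of 0.945. Cyba and Golim4 ran opposite (-0.934), and Tspo and Bmx had a correlation of -0.04. These describe 8 libraries that share the design's labels, and the genes were chosen for these labels. Among 2572 other genes with a mean of 5 CPM or more, those most like Prss23 were Map1lc3b (0.972), which encodes an autophagosome protein, and Areg (0.959), which encodes the growth factor amphiregulin. For Cyba they were Areg (0.973) and Map1lc3b (0.958). Adarb1 and Enpp1 shared Atp6v0a1 (0.981 and 0.958), which encodes a subunit of the vacuolar proton pump, followed by Dnlz (0.964) and Jun (0.945).

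Bmx was most like Cbx5 (0.993), which encodes a heterochromatin protein, and Lgals1 (0.976), which encodes galectin-1. Soat1 was most like Kctd5 (0.982) and Mea1 (0.981), Klhl8 most like Atn1 (0.960) and Cotl1 (0.957), and Tspo most like Rnh1 (0.966) and Sri (0.964). For the genes lower with TGF the highest values were smaller: LOC100362479 (0.933) and Pgam1 (0.916), a glycolytic enzyme gene, for Golim4, and Ccdc34 (0.903) and LOC100362987 (0.897) for Gng8. The deposited Gene Ontology terms place Prss23 and Enpp1 in the extracellular region (2.07% of tested genes have that term), Cyba, Bmx and Enpp1 at the plasma membrane (15.9%), Tspo at the mitochondrial outer membrane (1.15%) and Cyba and Golim4 at the Golgi apparatus (7.11%).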

How the data were processed

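The authors deposited 1 table of CPM per gene and library, scaled to library totals, with identifiers, symbols, mRatBN7.2 coordinates and Gene Ontology terms. Per the labels' protocols, libraries were made with the QIAseq UPX 3′ kit, trimmed, aligned with STAR and counted with featureCounts; the submitters' processing notes name STAR 2.7.10a with featureCounts 2.0.1, the trimmers cutadapt 3.7, Trimmomatic 0.39 and Trim Galore 0.6.7, and DESeq2 1.20.0. Not given in the sources used here: molecular identifiers, the strand setting and how multimapped reads were counted. Of 30240 rows 4319 had no symbol. Whole reads were recovered for 100% of values above 0 (tolerance 0.01), giving 1662973 to 2854134 reads in the table per library.

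The main test was limma 3.58.1 (R 4.3.3, eBayes trend) on log2(CPM + 1) with additive terms for genotype, plasmid and TGF label in 8 libraries, the interaction term added where tested, two-sided, Benjamini-Hochberg adjusted over 6849 genes that reached 1 CPM in 4 or more libraries, threshold 0.05. The plasmid and genotype by TGF tests were also run on simulated data with known differences and a single fixed spread. The other contrasts were not simulated, and no result here rests on that run. Alternatives were a pseudocount of 0.25, no filter, a filter of 5 CPM, TMM and same-median scaling, edgeR 4.0.16 and DESeq2 1.42.0 on the recovered reads, a model with the genotype by TGF term, and leaving out each library. Fold ratios are of mean CPM.

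The 10 genes and the gene lists were chosen with earlier results of these data known. All 10 genes are named; of each list, called genes and up to 3 with the highest mean CPM; for likeness, the 2 genes of highest Pearson correlation; and the genes next to the 10 in the TGF order. Other list genes were named after their read counts were seen. Krt14, Golga4, Klhl9 and Gngt2 had no matching symbol. Marker lists read were epithelium (summed 508 to 843 CPM), leukocytes, endothelium, mesenchyme (0 to 1.49 CPM) and odontoblasts and bone (1.00 to 2.59 CPM). Promoters are RefSeq's, on GRCr8, and their coordinates are not those of the table's build.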

Additional observations from a re-analysis of the deposited data

How the results depend on the processing

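The TGF directions of the 10 genes were the same in every alternative. Because the choice used the TGF and genotype contrasts in these libraries, calls in them describe the processing and do not test the genes. Prss23, Cyba, Klhl8, Adarb1 and Tspo stayed under the threshold in 16 of 16 alternatives, whereas Soat1 passed it in 3 of 16, and Bmx, Golim4, Gng8 and Enpp1 missed it in 6, 5, 3 (of 16 each) and 5 of 15. Leaving out 1 library moved the TGF difference of Soat1 between 0.39 and 0.54, of Bmx between 0.51 and 0.73, of Golim4 between -0.69 and -0.54, of Gng8 between -0.84 and -0.58 and of Enpp1 between 0.65 and 1.08. The libraries whose removal ended the TGF call were, for Soat1, all but Control pCMV6 N; for Bmx, those of AmeloD but pCMV6.ODAM TGF, and of Control with pCMV6.ODAM; for Golim4, AmeloD pCMV6 N and pCMV6.ODAM TGF and Control pCMV6.ODAM N and pCMV6 TGF; for Gng8, both pCMV6.ODAM N libraries and Control pCMV6 TGF; and for Enpp1, AmeloD pCMV6 TGF and those of Control but pCMV6 TGF. The TGF call of Soat1 also ended with TMM and same-median scaling, edgeR, DESeq2 and the model with the genotype by TGF term. With no filter the TGF calls of Soat1, Bmx, Enpp1 and Golim4 ended. For genotype, Cyba missed the threshold without AmeloD pCMV6.ODAM TGF (0.35), Prss23 without Control pCMV6 TGF (0.50) and Soat1 without Control pCMV6 N (-0.41). Klhl8, not called for genotype, passed in 4 of 16 alternatives. Golim4, also not called for genotype, missed the threshold in 15 of 16 and passed with same-median scaling. The cause of these changes was not tested. Enpp1 had no value at the filter of 5 CPM; with a pseudocount of 0.25, edgeR and DESeq2 its TGF difference was 1.33, 1.65 and 1.66 and its genotype difference -1.46, -1.91 and -1.91.

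Over all genes, TGF calls were 67 with no filter, where more genes were tested, and 71 to 104 when 1 library was left out (71 without AmeloD pCMV6.ODAM N, 76 without Control pCMV6.ODAM N). Genotype calls were 606 at the filter of 5 CPM, where 2707 genes were tested, and 642 to 924 without 1 library. Genotype by TGF calls were 0 with a pseudocount of 0.25, no filter, edgeR or DESeq2, and 0 to 7 without 1 library. Plasmid calls were 1 with DESeq2 and 0 to 2 without 1 library, and plasmid by TGF calls 0 to 3. None of the 10 genes was called for the plasmid or an interaction in any alternative. The TGF split was 86 higher and 29 lower with TMM, 79 and 26 with edgeR and 77 and 32 with DESeq2; the genotype split was 532 and 474, 519 and 438, and 414 and 363.

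Some values changed sign, and not all of them were near 0. In the main fit Gng8 was at 0.29 for genotype by TGF and Enpp1 at 0.18 for plasmid by TGF. With all 8 libraries, the values that changed sign in the genotype by TGF term were those of Soat1 and Adarb1. Soat1 did so with a pseudocount of 0.25 (0.0040), same-median scaling (0.018), edgeR (0.0053) and DESeq2 (0.0086), and Adarb1 with DESeq2 (0.0025). In the plasmid by TGF term those that changed sign were Bmx with TMM, same-median scaling, edgeR and DESeq2 (-0.16, -0.12, -0.15 and -0.15), Golim4 likewise (-0.18, -0.15, -0.19 and -0.19) and Enpp1 with DESeq2 (-0.050). For the plasmid it was Cyba with TMM (-0.0030). Leaving out 1 library gave, for genotype by TGF, -0.13 to 0.095 (Adarb1), -0.20 to 0.20 (Soat1), -0.15 to 0.29 (Klhl8), -0.25 to 0.11 (Golim4) and -0.055 to 0.64 (Gng8); for plasmid by TGF, -0.26 to 0.33 (Bmx), -0.39 to 0.75 (Enpp1) and -0.19 to 0.21 (Golim4); and for the plasmid, -0.068 to 0.12 (Cyba), -0.089 to 0.34 (Enpp1), -0.082 to 0.067 (Golim4) and -0.070 to 0.22 (Gng8). Without 1 library the combination left out has no value of its own. Depth limits Enpp1, with 3 to 82 reads per library, more than the other 9.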
